A study of Arabidopsis thaliana with 12 samples.

Results

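Of the cytochrome P450 genes of Arabidopsis thaliana, 22 could be followed by name in the aerial parts of mutants with constitutive defence. Members were the probe sets (the groups of short probes that read 1 transcript on the array) whose only annotated symbol was a P450 family, subfamily and gene number, with loci between AT2G36350 and AT2G45820 left out. They made up 22 of the 13286 loci with a probe set of their own. Of these genes 18 belonged to subfamily CYP71B, and the other 4 were CYP51G2, CYP78A9, CYP79A2 and CYP84A4. The rule itself uses symbols and loci, not signal, though it was set with earlier results of these data known. The gene table of the assembly TAIR10.1 holds 219 protein-coding P450 genes with such a symbol, and 20 of these are members. The members are thus a small and uneven part of the family, and most of the well-known biosynthetic P450s are not analysed here by name.

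Transcripts were measured on 12 Affymetrix ATH1 arrays, 2 for each of 6 genotypes, from plants aged 2 weeks and grown at 23 C, 70% humidity and a 16 h photoperiod. These genotypes were Col-0, the wild type (WT), 2 mutants of 1 gene each (cpr5 and npr1), their combination cpr5npr1, cpr5 combined with the suppressor scv1 (cpr5scv1), and cpr5npr1 combined with svi1 (cpr5npr1svi1). Loss of CPR5 gives lesions and active defence genes with no pathogen present, and NPR1 transmits the salicylic acid signal to defence genes. The labels describe cpr5npr1 as fully resistant to the oomycete P. parasitica, and cpr5scv1 as susceptible to it like the wild type, slightly more susceptible to P. syringae, and resistant to B. cinerea. They call cpr5npr1svi1 a triple mutant and give no phenotype. Whether the scv1 and svi1 lines were backcrossed is not given in the sources used here, so the effect of scv1 or svi1 cannot be told apart from that of other mutations in its line. The labels do not say whether the 2 arrays of a genotype hold different plants, and p-values then cover only how far these arrays differ, which could be technical variation. Because whole aerial parts were used, a change in cell make-up and a change of RNA per cell cannot be told apart.

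Cytochrome P450s are haem enzymes, most of them anchored in the endoplasmic reticulum, that insert an oxygen atom into small molecules with electrons from a reductase. In Arabidopsis they build and break down hormones, sterols, phenylpropanoids, glucosinolates and the indole compounds of pathogen defence. CYP71B is a large plant subfamily that has grown by tandem duplication. CYP71B6 oxidises indole-3-acetonitrile on the way to indole-3-carboxylic acid derivatives, which accumulate after pathogen attack, and CYP71B31 takes part in linalool oxidation in flowers. CYP79A2 starts benzylglucosinolate synthesis from phenylalanine, CYP84A4 acts in the synthesis of arabidopyrones, CYP78A9 promotes the growth of fruits and seeds, and the CYP51 family holds sterol demethylases.

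Values are linear MAS5 signal, as the authors deposited it. Signals of different probe sets were set side by side only for the background level, the filter, marker sums and display. They are not read as differences in transcript amount between genes. Background was taken as a signal of 7.76, the 95th percentile of 27 bacterial control sets. From 76.9% to 79.5% of all probe sets lay above it per array, and from 14 to 18 of the 22 P450 genes. For the labelled aerial tissue, the summed signal of 69 of 69 chloroplast-encoded genes ran from 93806.9 to 135887.8 per array. Of 7 green tissue markers 1 had a named probe set, PORB, a chlorophyll synthesis enzyme, at 805.4 to 2299.7. PORB was called higher in cpr5npr1svi1 against WT (log2 change 1.06, adjusted p = 0.0322). The 69 leaned the other way against WT, with log2 medians of -0.40 in cpr5, -0.25 in npr1, -0.43 in cpr5scv1 and -0.06 in cpr5npr1svi1. Of them 2 were called lower in cpr5 and 6 in cpr5scv1, where PORB had 0.46 and 0.80 without a call. From cpr5npr1 to cpr5npr1svi1 both were higher (median 0.18, PORB 0.90). Of 5 root markers 2 had a named probe set, with a summed signal of 175.3 to 841.5. They were PYK10 at 165 to 836, above background on every array, and EXPA7, a root hair gene, at 2.00 to 18.3. Of 3 pollen markers 2 had one, with a summed signal of 2.2 to 11.1, and of 2 seed markers none. The part of such material in the P450 results was not tested. The mutated genes CPR5 and NPR1 have no named probe set, so the labels were not checked against them.

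After the dimmest 30% of all probe sets were left out, by mean log2 signal over 12 arrays, 14 of the 22 P450 genes remained for testing. These were 11 CYP71B genes and CYP51G2, CYP78A9 and CYP84A4. The 8 genes left out were CYP71B16, CYP71B21, CYP71B25, CYP71B27, CYP71B31, CYP71B37, CYP71B38 and CYP79A2. CYP71B16, CYP71B21, CYP71B31 and CYP79A2 lay below background on all 12 arrays, with highest signals of 5.13, 5.28, 6.00 and 2.52. CYP71B25 passed background on 2 arrays, CYP71B38 on 7, CYP71B27 on 9 and CYP71B37 on 10. CYP71B27 is listed as a transcribed pseudogene in the gene table. Only 20 of the 22 members are listed as protein-coding, so a further member, outside CYP71B, is not. The gene nearest under the filter was CYP71B37, with a geometric mean signal of 11.5, and the nearest above it was CYP51G2, with 13.8.

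**Figure D1:**
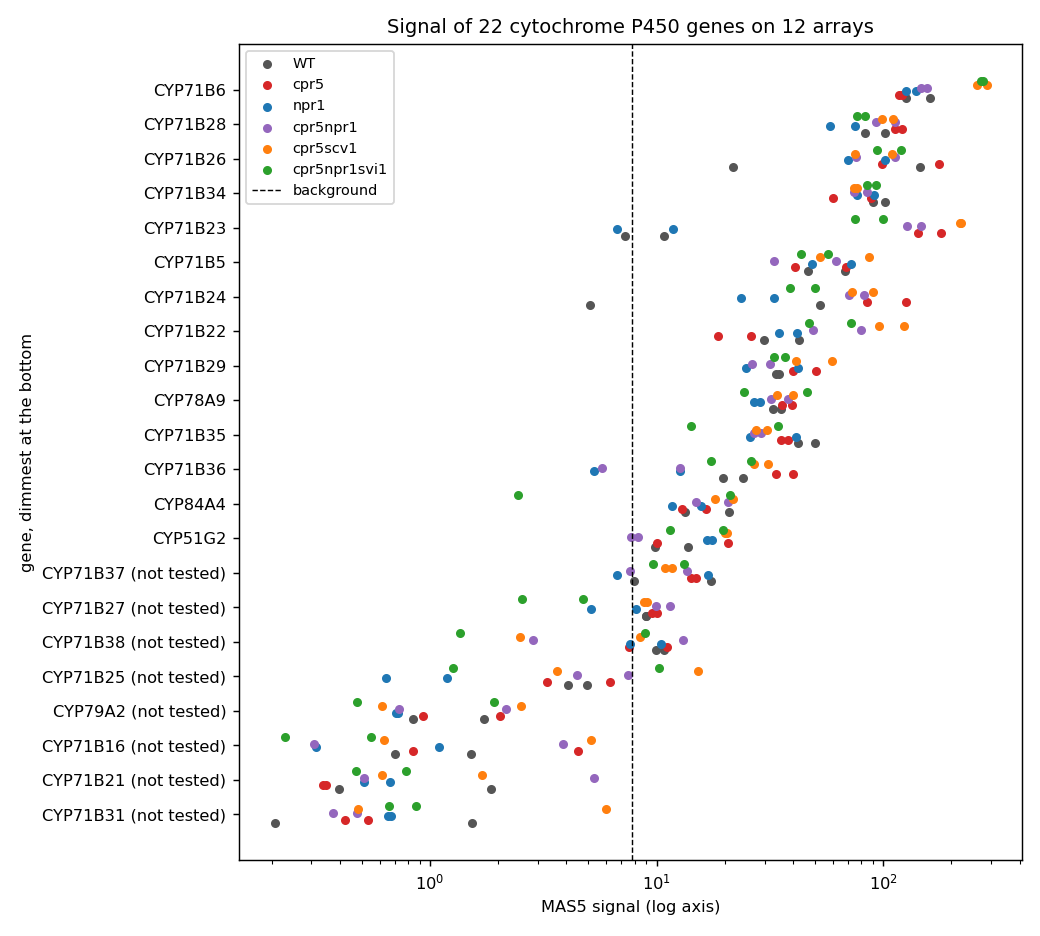
MAS5 signal (log axis) of the 22 P450 genes on 12 arrays, 1 row per gene, coloured by genotype, with background as a dashed line. The rows are sorted by mean signal for display only, and CYP71B23 is the gene whose 4 arrays without cpr5 (6.70 to 11.9) stand apart from its 8 arrays with cpr5 (74.8 to 220.3).

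Over 8 pairwise comparisons of genotypes, 10 calls were made among the tested P450 genes, all of them rises, and they fell on 3 CYP71B genes: CYP71B23, CYP71B22 and CYP71B6. A call is an adjusted p below 0.05 in limma (Benjamini-Hochberg over the 15923 probe sets tested). Limma is a linear model that shares information on spread across probe sets, here with no term for the replicate number. With that term CYP71B24, CYP71B28 and CYP71B35 had calls too, CYP71B35 as a fall. The share of all probe sets called also grew, in cpr5 versus WT to 17.4% from 8.71%. Without the term limma called no member lower. At an unadjusted p below 0.05, 5 of the 112 pairs of gene and comparison were lower in limma, while 16 were higher. Over all tested probe sets the share at an unadjusted p below 0.05 ran from 3.90% to 35.4% by comparison. No gene outside CYP71B was called. All comparisons against WT share the WT arrays, and those with cpr5 share the cpr5 arrays.

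**Figure D2:**
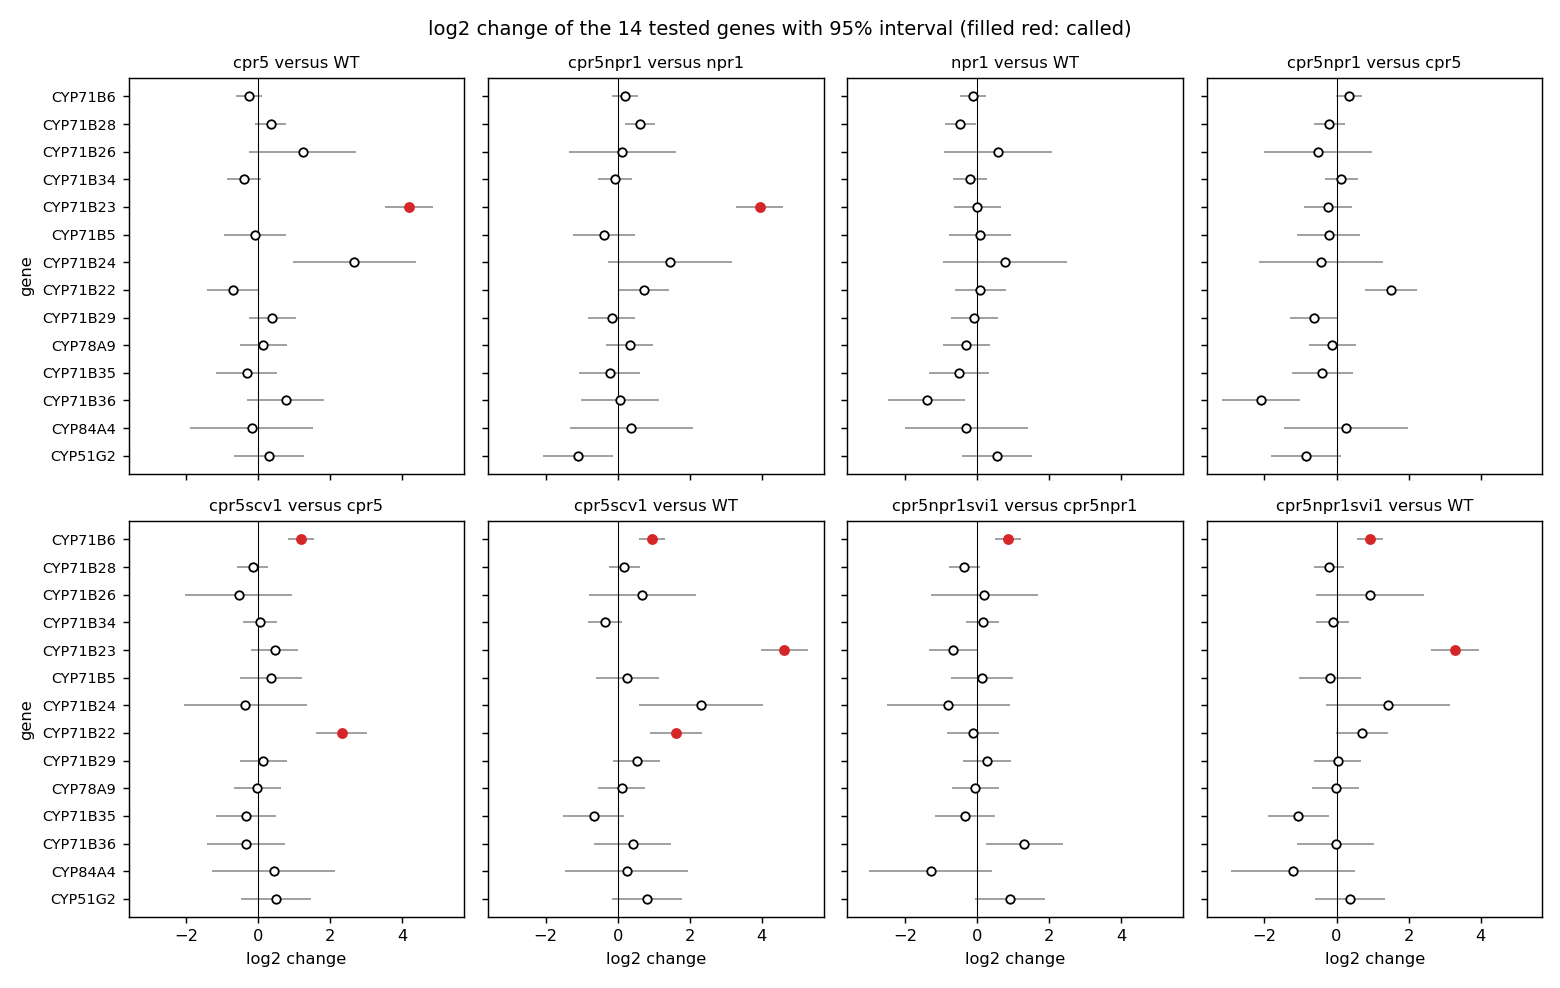
The log2 change of the 14 tested P450 genes in 8 comparisons, with 95% intervals from limma. Filled red points are the 10 calls, of which the highest is CYP71B23 in cpr5scv1 versus WT at 4.63.

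CYP71B23 (AT3G26210) was near background without the cpr5 mutation and high with it. The WT arrays read 7.28 and 10.8 and the npr1 arrays 6.70 and 11.9. The cpr5 arrays read 142 and 180.1 and those of cpr5npr1 146 and 127. Those of cpr5scv1 read 218 and 220.3, and those of cpr5npr1svi1 74.8 and 99.8. The 8 arrays with cpr5 thus did not overlap with the 4 arrays without it, and cpr5npr1svi1 was the lowest of the genotypes that carried cpr5. Of the 14 tested genes 1, CYP71B23, had no such overlap, where 14.5% of all tested probe sets had none and 9.31% had none and were higher with cpr5.

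In the comparison of cpr5 with WT, 1 of 14 P450 genes was called, against 8.71% of all probe sets tested (6.56% higher and 2.15% lower), so the share of the family was near the background. The call was CYP71B23. Its log2 change was 4.17 (SE 0.30, adjusted p = 4.34e-05). Since 1 of 2 WT arrays lay below background, the fold is given as a bound, at least 17.5-fold higher. In plants with npr1, where cpr5npr1 was compared with npr1, 1 of 14 genes was called, against 5.12% of all probe sets (4.32% higher and 0.798% lower). CYP71B23 again was that gene, at least 14.2-fold higher with 1 of 2 npr1 arrays below background (log2 change 3.94, adjusted p = 9.08e-05). The difference between both changes, the interaction, was -0.24 on the log2 scale (95% interval -1.17 to 0.70, adjusted p = 1.00).

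CYP71B23 was above WT in the lines with scv1 and svi1 too. It was at least 23.9-fold higher in cpr5scv1 (log2 change 4.63, adjusted p = 9.99e-06) and at least 9.44-fold higher in cpr5npr1svi1 (log2 change 3.29, adjusted p = 0.000135). Against their own parent genotypes no call was made. The log2 change was 0.45 (SE 0.30, adjusted p = 0.655) for cpr5scv1 against cpr5, and -0.66 (95% interval -1.32 to 0.00, adjusted p = 0.485) for cpr5npr1svi1 against cpr5npr1. In each of these pairs the arrays did not overlap, and the changes were 0.62 and 0.29 in replicates 1 and 2 for scv1, and -0.97 and -0.35 for svi1. The 4 calls held under all 20 alternatives tried for each, with adjusted p from 2.38e-06 to 0.0071, but a pseudocount of 32 lowered their log2 changes to 2.23 in cpr5, 2.61 in cpr5scv1 and 1.53 in cpr5npr1svi1 against WT, and to 2.03 in cpr5npr1 against npr1.

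**Figure D3:**
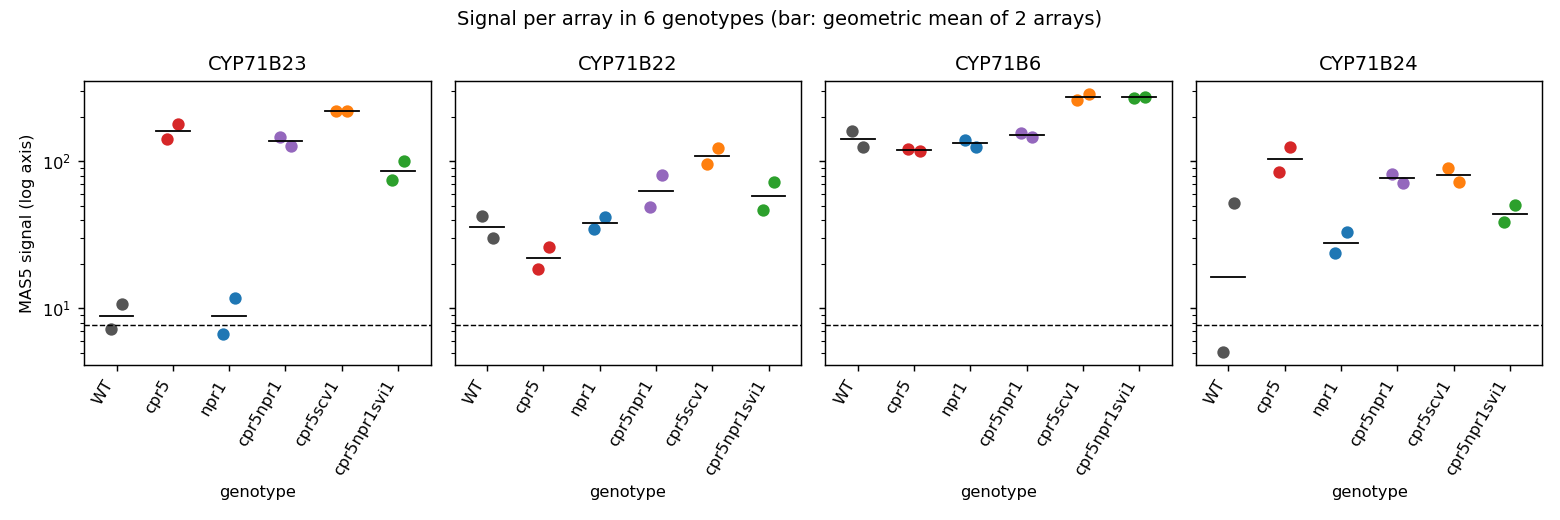
Signal per array (log axis) of CYP71B23, CYP71B22, CYP71B6 and CYP71B24 in the 6 genotypes, 2 points per genotype with their geometric mean as a bar and background as a dashed line. CYP71B23 splits by cpr5, CYP71B6 is highest in cpr5scv1 and cpr5npr1svi1 (260.2 to 287), and CYP71B24 has WT arrays at 5.08 and 52.4.

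CYP71B22 (AT3G26200) is the direct neighbour of CYP71B23 in the gene order and was highest where scv1 was present. Its signal was 42.4 and 29.9 in WT and 34.6 and 41.7 in npr1. The cpr5 arrays, at 18.6 and 26.0, were the lowest of all. It was 49.2 and 80.2 in cpr5npr1, 96.3 and 124 in cpr5scv1, and 46.9 and 71.9 in cpr5npr1svi1. In order of mean signal the genotypes thus ran cpr5, WT, npr1, cpr5npr1svi1, cpr5npr1 and cpr5scv1, and the arrays of WT and npr1 overlapped, as did those of cpr5npr1svi1 and cpr5npr1.

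In cpr5scv1 against cpr5, 2 of 14 P450 genes rose, CYP71B22 and CYP71B6, where 0.804% of all probe sets were called (0.327% higher and 0.477% lower). CYP71B22 rose from 22.3 ± 5.22 (SD, n = 2) to 110.0 ± 19.4, which is 4.97-fold (log2 change 2.31, SE 0.32, adjusted p = 0.0107). Leaving out cpr5 replicate 1 ended the call (adjusted p = 0.103), as did leaving out either array of cpr5scv1 (0.0757 and 0.0836). Against WT it was 3.06-fold higher (log2 change 1.62, adjusted p = 0.00512), and this call held under all 20 alternatives, with adjusted p of 0.00125 to 0.0467. With a pseudocount of 32 the log2 changes of CYP71B22 were 1.38 against cpr5 and 1.06 against WT. CYP71B22 in cpr5 itself had a log2 change of -0.70 against WT (SE 0.32, adjusted p = 0.231).

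The npr1 mutation in cpr5 plants went with a higher CYP71B22 signal, and no call was made. The comparison of cpr5npr1 with cpr5 gave a log2 change of 1.51 (SE 0.32, adjusted p = 0.378), with 1.40 in replicate 1 and 1.63 in replicate 2. The cpr5 change had opposite signs with and without functional NPR1, at -0.70 against WT and 0.73 against npr1 (adjusted p = 0.278 for the second), in both replicates of each. Its interaction was 1.42 (SE 0.46) with an adjusted p of 1.00 in limma. For CYP71B22 cpr5npr1svi1 against cpr5npr1 gave a log2 change of -0.11 (95% interval -0.83 to 0.60), a sign that turned without cpr5npr1 replicate 2 (0.24) or cpr5npr1svi1 replicate 1 (0.20).

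CYP71B6 (AT2G24180), the gene of the indole-3-acetonitrile branch, was highest in cpr5scv1 and cpr5npr1svi1. Its signal was 161 and 126 in WT, 121 and 118 in cpr5, and 139.5 and 126 in npr1. The cpr5npr1 arrays read 157 and 146. In cpr5scv1 it was 260.2 and 287, and in cpr5npr1svi1 269.5 and 275. The 4 arrays of these lines thus all lay above the 8 other arrays, which ran from 118 to 161. This split of arrays was not planned, and the share of all probe sets that show it was not counted. In cpr5 against WT the log2 change was -0.25 (SE 0.16, adjusted p = 0.411), so this gene was not among the cpr5 calls.

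CYP71B6 rose 2.29-fold in cpr5scv1 against cpr5, from 120 ± 2.73 to 274 ± 18.8 (SD, n = 2; log2 change 1.19, SE 0.16, adjusted p = 0.00996). It no longer passed the threshold when an array of cpr5 (0.0781 and 0.0903) or of cpr5scv1 (0.0757 and 0.0762) was left out. In cpr5npr1svi1 against cpr5npr1 it was the 1 of 14 P450 genes called, where 1.15% of all probe sets were (0.829% higher and 0.320% lower), and rose 1.80-fold, from 151 ± 7.37 to 272 ± 3.73 (log2 change 0.85, SE 0.16, adjusted p = 0.0399). This call was lost without any 1 array other than those of WT (0.0615 to 0.201). It was also lost without the trend of spread on intensity (0.0785) and in a fit of the 2 groups alone (0.116). The 2 comparisons share no array.

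Against WT, 3 of 14 genes were called in cpr5scv1, where 22.4% of all probe sets were called (12.8% higher and 9.55% lower). In cpr5npr1svi1 against WT 2 of 14 were called, where 12.0% of all probe sets were (7.88% higher and 4.08% lower). CYP71B6 was 1.92-fold higher in cpr5scv1 (log2 change 0.94, adjusted p = 0.00243) and 1.91-fold in cpr5npr1svi1 (log2 change 0.94, adjusted p = 0.00453). The first held under all 20 alternatives, with adjusted p of 0.000616 to 0.0373, and the second was lost when only its 2 groups were fitted (0.0691). Of the other indole glucosinolate and camalexin genes fixed as a list, 1 of 11 had a named probe set. It was UGT74B1, a glucosyltransferase of glucosinolate synthesis, and it was called in none of the 8 comparisons, with 245 ± 23.3 in cpr5scv1 and 360 ± 69.9 in WT (log2 change -0.55, adjusted p = 0.134). None of the 7 reductase and cytochrome b5 genes that serve P450s had a named probe set.

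**Figure D4:**
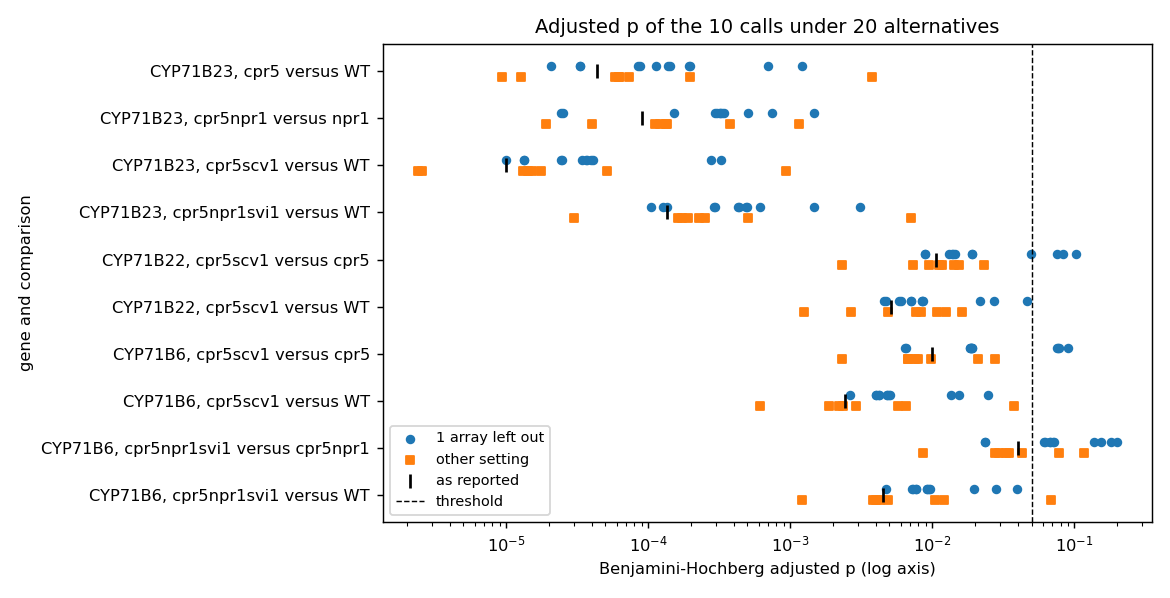
Adjusted p (log axis) of the 10 calls as reported (black bars), with 1 array left out (blue) and under other settings (orange squares), against the threshold of 0.05. All CYP71B23 points lie left of the threshold, whereas CYP71B6 in cpr5npr1svi1 versus cpr5npr1 lies right of it, with the call lost, in 12 of 20 alternatives.

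On chromosome 3 the gene table holds 18 CYP71B genes from CYP71B16 to CYP71B37, interrupted by 6 other genes between CYP71B24 and CYP71B25. Of these 18, 11 were members and 7 were tested, so 7 of the 14 tested P450 genes come from this run. CYP71B22 and CYP71B23 follow each other without a gene between them. CYP71B3 separates CYP71B23 from CYP71B24 and has no member probe set here. Near-identical copies can share hybridisation, and with no sequences here this was not tested.

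**Figure D5:**
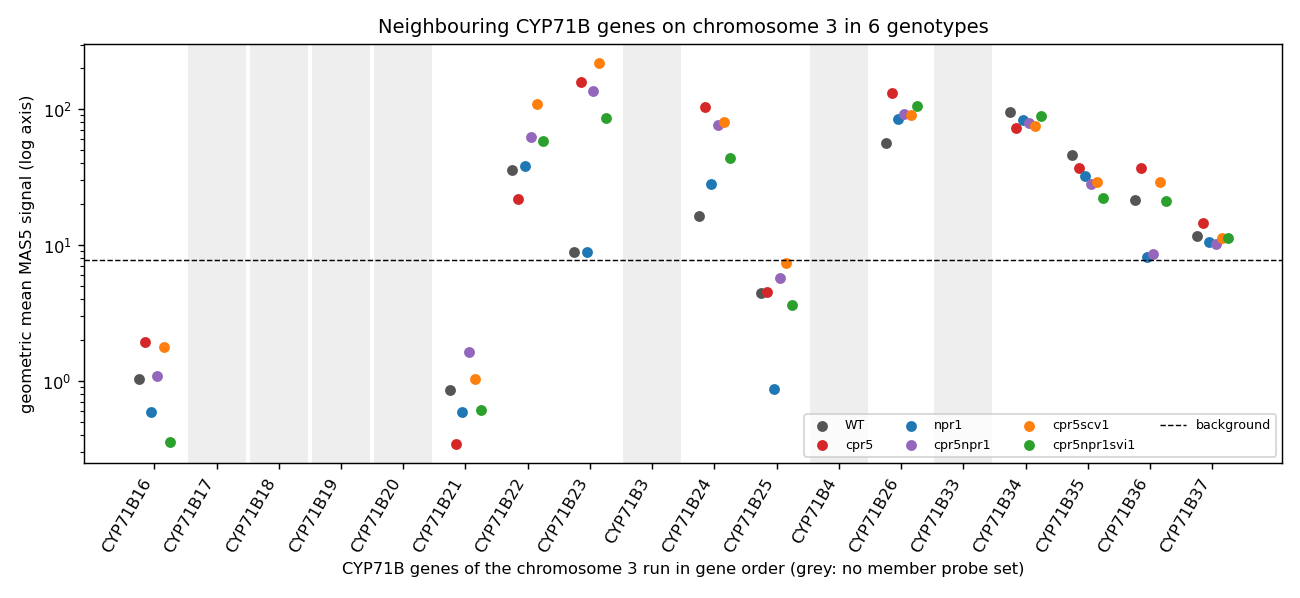
Geometric mean signal (log axis) of the CYP71B genes of the chromosome 3 run in gene order, coloured by genotype, with background dashed and genes without a member probe set in grey. CYP71B23 lies near background in WT and npr1 and far above it in the 4 genotypes with cpr5, CYP71B22 beside it is highest in cpr5scv1, and CYP71B34 varies little between genotypes.

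CYP71B24 (AT3G26230), the next measured gene of the run after CYP71B23, was chosen for description after its values were seen, as were CYP71B26, CYP71B28, CYP71B35, CYP71B36 and CYP51G2. Its signal was 85.0 and 126 in cpr5, 82.3 and 71 in cpr5npr1, 90.0 and 72.6 in cpr5scv1, and 38.6 and 50.2 in cpr5npr1svi1. In npr1 it was 23.6 and 33.0, and in WT 5.08 and 52.4. The genotypes with cpr5 were thus mostly higher, but WT replicate 2 lay above both arrays of cpr5npr1svi1. Between cpr5npr1 and npr1, a comparison without WT arrays, the arrays did not overlap, as in 48.0% of all tested probe sets. The log2 change there was 1.45 (SE 0.78, limma adjusted p = 0.385). This SE comes from the spread within all groups, so the unlike WT arrays enter it though the comparison holds none of them. The change was called in limma when only these groups were fitted (adjusted p = 0.0235). In the main model no call was made: the log2 change in cpr5 against WT was 2.66 (SE 0.78, adjusted p = 0.0600), and in cpr5scv1 against WT 2.31 (adjusted p = 0.0555). Since WT replicate 1 lay below background, these are at least 5.13-fold and 4.01-fold higher. With the replicate number as a block in limma both changes against WT became calls (adjusted p = 0.0237 and 0.0249). With WT replicate 1 left out the cpr5 change fell to 0.98, and the cpr5scv1 change to 0.63 (adjusted p = 0.219). With WT replicate 2 left out they were 4.35 (adjusted p = 2.2e-05) and 3.99 (adjusted p = 2.95e-05), sizes that then rest on 1 WT array at 5.08, below background, and are not measured folds.

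CYP71B26 (AT3G26290) showed the same split of the WT arrays. Its signal was 21.7 in WT replicate 1 and 145 in WT replicate 2, while the other 10 arrays ran from 69.6 to 176. Between the WT arrays CYP71B24 differed by 3.37 and CYP71B26 by 2.74 on the log2 scale, differences that 0.477% and 0.867% of the tested probe sets reached. PYK10 differed the same way, with 165 in WT replicate 1 and 773 in WT replicate 2. EXPA7, the other root marker with a named probe set, went the other way, with 10.5 and 2.00, the second below background. The part of root material in these values was not tested. The cpr5 change of CYP71B26, 1.23 (SE 0.68, adjusted p = 0.320), was -0.14 without WT replicate 1 and 2.60 without WT replicate 2 (adjusted p = 0.00238), so its direction rests on 1 WT array. CYP71B23 differed by 0.57 between the WT arrays, and its change in cpr5 was 4.29 in replicate 1 and 4.06 in replicate 2.

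CYP71B36 (AT3G26320), further along the run, was low in npr1 and cpr5npr1. Its signal was 12.6 and 5.29 in npr1 and 12.7 and 5.77 in cpr5npr1. It was 19.5 and 24.0 in WT and 33.6 and 40.1 in cpr5. In cpr5npr1svi1, which also carries npr1, it was 26.1 and 17.3, and in cpr5scv1 31.0 and 27.0. None of the 4 arrays of npr1 and cpr5npr1 overlapped with the other 8, and 1 array of each lay below background. The share of all probe sets with this unplanned split was not counted.

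The npr1 comparisons made no call among P450 genes. In npr1 against WT, limma called 0 of 14, where 0.00628% of all probe sets were called, and 2 genes had an unadjusted p below 0.05, as 5.65% of all probe sets did. CYP71B36 had a log2 change of -1.40 (SE 0.49, adjusted p = 0.820), at least 2.18-fold lower with 1 of 2 npr1 arrays below background. It was -0.78 without npr1 replicate 2, -2.03 without npr1 replicate 1 and -0.40 with a pseudocount of 32. CYP71B28 had one of -0.47 (SE 0.19, adjusted p = 0.840). In cpr5npr1 against cpr5, limma called 0 of 14, where 0.0440% of all probe sets were called (0.00628% higher and 0.0377% lower), and 2 had an unadjusted p below 0.05, CYP71B22 and CYP71B36, where 3.90% of all probe sets did. CYP71B36 had a log2 change of -2.10 there (SE 0.49, adjusted p = 0.471), at least 3.70-fold lower with 1 of 2 cpr5npr1 arrays below background, and -0.74 with a pseudocount of 32. For the interaction of cpr5 and npr1, limma called 0 of 14, against 0.0251% of all probe sets, and 2 had an unadjusted p below 0.05, CYP71B22 and CYP51G2, where 3.18% of all probe sets did.

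CYP71B28 (AT1G13090), in a group of CYP71B genes on chromosome 1, had 101 and 83.4 in WT, and 113 and 121 in cpr5. The npr1 arrays read 75.3 and 58.4, and those of cpr5npr1 112 and 92.5. The arrays of npr1 and cpr5npr1 did not overlap. Its log2 change in cpr5npr1 against npr1 was 0.62 (SE 0.19, adjusted p = 0.110), which became a call with the replicate block (adjusted p = 0.0376). CYP71B29, which follows it, ran from 24.9 to 59.5 over all arrays and had no call.

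CYP71B34 ran from 59.8 to 102 and CYP71B5 from 33.1 to 86.7. CYP71B35 ran from 50.1 and 42.2 in WT to 34.5 and 14.2 in cpr5npr1svi1, a log2 change of -1.06 (SE 0.38, adjusted p = 0.105), which was called with the replicate block, with arrays scaled to one median, and without replicate 1 of cpr5npr1svi1. CYP78A9, the fruit and seed growth gene, ran from 24.4 to 46.2, with its largest change at 0.33 (cpr5npr1 against npr1, 95% interval -0.32 to 0.98). CYP84A4, of arabidopyrone synthesis, ran from 11.7 to 21.6 apart from 1 array of cpr5npr1svi1 at 2.46, below background. CYP51G2 had 8.28 and 7.70 in cpr5npr1 against 16.7 and 17.5 in npr1, a log2 change of -1.10 (SE 0.44, adjusted p = 0.219), at signals near background.

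P450 genes with no overlap between the arrays of 2 groups numbered 10 of 14 in cpr5 against WT, where 48.8% of all tested probe sets did not overlap. The count was 7 in cpr5npr1 against npr1 (48.0% of all), 5 in npr1 against WT (30.2%) and 8 in cpr5npr1 against cpr5 (29.7%). It was 7 in cpr5scv1 against cpr5 (43.4%), 9 in cpr5scv1 against WT (59.4%), 7 in cpr5npr1svi1 against cpr5npr1 (36.9%) and 5 in cpr5npr1svi1 against WT (49.7%). With 2 arrays a group, missing overlap was thus common in all genes.

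By subfamily, the 11 tested CYP71B genes had a median log2 change of 0.34 in cpr5 against WT, and the 3 others one of 0.14, beside 0.02 over all probe sets tested. In cpr5npr1 against npr1 the medians were 0.13, 0.33 and -0.00. In cpr5scv1 against WT they were 0.53, 0.24 and -0.01, and in cpr5npr1svi1 against WT 0.03, -0.02 and 0.04. The span within CYP71B in cpr5, from -0.70 for CYP71B22 to 4.17 for CYP71B23, had neighbouring genes at its ends.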

How the data were processed

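The authors deposited 1 table of signal intensity, not logged, which the submitters' processing notes credit to MAS5. The sources used here give neither its version nor its settings. Leaving out the lowest and highest 2%, every array's mean was 100.01, so arrays had been scaled to one target. No further normalization and no pseudocount were applied. The file holds 22810 probe sets, of which 64 control sets and the dimmest 30% were left out, and 15923 were tested on the log2 scale. Genes came from the platform annotation (13513 probe sets with 1 gene, 503 with several, 8730 with none listed), updated through the TAIR10.1 table; 13436 matched a locus. Every member had 1 probe set, so no choice between probe sets arose.

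One limma 3.58.1 model in R 4.3.3 (lmFit, contrasts.fit, eBayes with trend) held 6 group means over 12 arrays (6 residual and 4.65 prior degrees of freedom), with 8 pairwise comparisons and 1 interaction. The number of arrays limits the precision. Where an array of the dimmer group lay below background, it was raised to 7.76, and the fold of a called gene is given as a lower bound. This bound covers the signal below background, not the spread between arrays. The script was tested on simulated data. Replicate numbers came from the titles. Differences between replicates 1 and 2 correlated at 0.175 to 0.363 over 15 pairs of groups, so the replicate numbers were taken to pair the arrays. The main model leaves this pairing out, and only the replicate block, an alternative, uses it. Alternatives were quantile normalization, one median, a pseudocount of 32, no filter or one of 50%, no trend, only the groups compared, the replicate block, and each array left out. Named genes were up to 8 called rises and falls per comparison, CYP71B22, CYP71B23 and the fixed lists. Members and lists were chosen with earlier results of these data known.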

Additional observations from a re-analysis of the deposited data

How the results depend on the processing

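The number of P450 genes called stayed within 1.5 times the reported count in 16 or more of 20 alternatives per comparison, except cpr5npr1svi1 versus cpr5npr1, where 12 of 20 gave 0, and quantile normalization, no filter and a filter of 50% moved no count. In cpr5 versus WT the count of 1 became 2 with a pseudocount of 32 or the replicate block (CYP71B24 joined), and 1 to 3 with 1 array left out. The share of all probe sets called, 8.71%, was then 8.60% and 17.4%, and 9.84% without WT replicate 2. In cpr5npr1 versus npr1 the count of 1 became 2 when only the groups compared were fitted (CYP71B24 joined) or with the replicate block (CYP71B28 joined), where 3.59% and 10.4% of all probe sets were called against 5.12%, and 1 to 2 with 1 array left out. Cpr5npr1svi1 versus cpr5npr1 went from 1 to 0 without the trend or when 2 groups alone were fitted. Of all probe sets 0.528% and 0.232% were then called, against 1.15%. The call was also lost without any 1 array other than those of WT, and the share of all probe sets called fell as well. Cpr5npr1svi1 versus WT went from 2 to 1 with only the groups compared, where 4.17% of all probe sets were called against 12.0%. It went to 3 with the replicate block or one median (CYP71B35, lower, joined), and 14.2% of all were called with one median. With 1 array left out it moved too: CYP71B35 joined without cpr5npr1svi1 replicate 1 and CYP84A4 without replicate 2. Cpr5scv1 versus WT went from 3 to 4 with a pseudocount of 32 or the replicate block (CYP71B24 joined). With the pseudocount 22.6% of all probe sets were called, against 22.4%. In cpr5scv1 versus cpr5 the count fell without any 1 array of cpr5 or cpr5scv1. The share of all probe sets called there fell as well. With 1 array left out, cpr5scv1 versus cpr5 gave 0 to 2, cpr5scv1 versus WT 3 to 5, npr1 versus WT 0 to 2, the interaction 0 to 1, and cpr5npr1 versus cpr5 0. Without WT replicate 2, CYP71B24 and CYP71B26 joined in cpr5, npr1, cpr5scv1 and cpr5npr1svi1 versus WT, and CYP71B24 in the interaction; of all probe sets 1.90% were then called in npr1 versus WT, against 0.00628%, and 1.03% in the interaction, against 0.0251%. A lone array was assumed to vary like the other groups. With the block, 34% of all probe sets were called in cpr5scv1 versus WT and 21.4% in cpr5npr1svi1 versus WT, against 22.4% and 12.0%. The replicate block changed no other call of a P450 gene. CYP71B22 in cpr5npr1svi1 versus cpr5npr1 (-0.11) ran from -0.47 without cpr5npr1 replicate 1 to 0.24 without cpr5npr1 replicate 2, and was 0.20 without cpr5npr1svi1 replicate 1. Without WT replicate 1, CYP71B24 in cpr5npr1svi1 versus WT (1.43) turned to -0.25 and CYP71B26 in cpr5 versus WT (1.23) to -0.14; without WT replicate 2 they were 3.12, against 1 WT array below background, and 2.60. The cause was not tested. The alternative of several probe sets per gene gave no value, since each P450 gene has 1. Signals near 7.76 limit CYP51G2, CYP84A4, CYP71B36 and the WT level of CYP71B23.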

Other observations

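CYP71B30P is no member. Its symbol marks a pseudogene, though the gene table lists it as protein-coding. It had 0.641 to 2.62 on 11 arrays and 11.6 on replicate 2 of cpr5npr1svi1.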
